A study of Mus musculus with 115 samples.

Results

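The G1 cyclins Ccnd1, Ccnd2, Ccnd3, Ccne1 and Ccne2 and their kinases Cdk2, Cdk4 and Cdk6 were examined in prostate RNA from (TRAMP x WSB) F2 mice. These 8 genes were chosen by name, not by their values, out of 45699 genes in the table, and all of them were found in it. Each was set against Mki67, a nuclear protein gene that is expressed in cycling cells. Cdk4 was the most abundant of the 8 at the median, and in the 79 libraries of the larger part described below the 2 E cyclins, Cdk2 and Cdk4 rose with Mki67 under both scalings used, as 72.9% of all genes did under the first and 22% under the second. Ccnd1 was called under neither, Ccnd2 and Cdk6 were not called under the first and were called lower under the second, and Ccnd3 was called higher under the first and lower under the second.

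A cell passes from G1 into S phase when cyclin-dependent kinases phosphorylate the retinoblastoma (RB) proteins and release the E2F transcription factors. The D cyclins pair with Cdk4 and Cdk6 and start this step in answer to growth signals, and the E cyclins pair with Cdk2 and complete it, while the E cyclin genes are themselves E2F targets. The TRAMP transgene carries the SV40 T antigens under a probasin promoter that is active in prostate epithelium, and large T antigen binds and inactivates the RB proteins and p53.

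Every library carried a different code, taken here to stand for a separate mouse. The labels place the libraries in 1 group of (TRAMP x WSB/EiJ) F2 mice that all carried the transgene. Per the study's methods the mice were males, bred in 2 steps: C57BL/6J TRAMP females were mated to males of the wild-derived inbred strain WSB/EiJ, and transgene-positive F1 females were then mated to transgene-negative F1 males. Tissue was collected at a fixed age or at a humane endpoint, the age of each mouse is not in the labels, and small prostates gave RNA of the ventral lobe only. The RNA was that of bulk prostate tissue, so any tumor cells and other cells were measured together. Fewer cells of a type cannot be told apart from less RNA per cell. Per the study's methods, organ weight stood for tumor burden and tumor was not established by pathology. With no second group the comparisons are among genes and across libraries.

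Levels are given as TPM, the authors' transcript count corrected for length and scaled to an equal total in every library, from which depth cannot be read. A library had 10358 to 15824 genes at 1 TPM or more, and its 20 most abundant genes took 51.7% to 84.5% of it. The first principal component over 14623 genes separated the libraries into 79 and 36. The same 79 and 36 were obtained from 14559 genes, without the members, Mki67 and the pathway and proliferation genes followed below. Other cell cycle genes, such as Slbp, Pola2 and Rfc3, were not removed. The 79 and the 36 libraries are called the larger and the smaller part. They were defined from the data, and correlations were computed within each and never over both. The summed level of 8 neuroendocrine marker genes was 1.26 to 45 TPM in the larger part and 51.3 to 759.1 TPM in the smaller part, and that of 8 prostate luminal markers was 328.8 to 58120 TPM and 38.98 to 2756 TPM.

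The promoters of Cdk2, Ccne1 and Cdk4 are shown because these genes moved together in the larger part, as given below. Windows of 250 bases before and 50 after the annotated start (RefSeq, GRCm38.p6) were held for 5 of the 8 members, namely Ccnd3, Ccne1, Cdk2, Cdk4 and Cdk6. The Cdk2 window was chr10:128705002-128705301 on the minus strand. The Ccne1 window was chr7:38107441-38107740 on the minus strand. The Cdk4 window was chr10:127063285-127063584 on the plus strand. Capitals mark an E2F-type motif in Cdk2 and the E-box CACGTG, the sequence bound by Myc and related factors, in Cdk4.
Cdk2: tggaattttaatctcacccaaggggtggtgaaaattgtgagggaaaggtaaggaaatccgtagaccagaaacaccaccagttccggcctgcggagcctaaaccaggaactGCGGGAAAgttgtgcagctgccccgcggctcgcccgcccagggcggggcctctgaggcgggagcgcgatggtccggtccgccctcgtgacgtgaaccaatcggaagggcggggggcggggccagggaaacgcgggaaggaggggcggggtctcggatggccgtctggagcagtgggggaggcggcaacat
Ccne1: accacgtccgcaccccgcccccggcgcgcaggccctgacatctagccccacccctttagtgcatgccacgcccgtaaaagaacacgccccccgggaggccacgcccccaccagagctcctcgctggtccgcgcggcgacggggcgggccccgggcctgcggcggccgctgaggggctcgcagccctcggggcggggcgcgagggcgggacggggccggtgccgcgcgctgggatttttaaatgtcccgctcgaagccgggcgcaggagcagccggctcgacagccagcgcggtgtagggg
Cdk4: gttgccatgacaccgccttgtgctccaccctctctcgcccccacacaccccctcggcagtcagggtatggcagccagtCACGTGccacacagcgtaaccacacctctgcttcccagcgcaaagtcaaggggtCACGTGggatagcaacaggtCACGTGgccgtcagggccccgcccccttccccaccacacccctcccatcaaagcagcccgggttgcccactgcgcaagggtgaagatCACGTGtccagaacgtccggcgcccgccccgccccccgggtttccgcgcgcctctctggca
Of the motifs TTTCCCGC, TTTCGCGC, TTTGCCGC and TTTGGCGC, searched on both strands, only TTTCCCGC was found in a member. It lies in the Cdk2 window, read there as GCGGGAAA with its first base 140 bases before the start. At least 1 of these 4 motifs was held by 744 of 32851 promoter windows of the same length, or 2.26%. Among genes averaging 1 TPM or more that had a window, 471 of 10239, or 4.6%, held one. No match of them overlapped with CACGTG, which was searched after the windows had been read and reads the same on both strands. The Cdk4 window held CACGTG at 4 places and the Cdk6 window at 1, against 7.15% of all windows with at least 1 and 8 windows, or 0.0244%, with 4 or more. The Ccne1 window held none of these motifs. A match describes the sequence and was not tested as a binding site.

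Among the D cyclins, Ccnd3 was the most abundant in most libraries. Ccnd3 (ENSMUSG00000034165, chromosome 17, 47505051 to 47599691 on GRCm38) had a median of 15.4 TPM, with a lowest value of 3.13 and a highest of 35.3. It had the smallest ratio of highest to lowest of the 8 members, 11.3. Ccnd1 (ENSMUSG00000070348, chromosome 7, 144929931 to 144939925) had a median of 9.72 TPM, but ran from 0.16 to 135.4, a ratio of 847 and the largest among the members. Ccnd2 (ENSMUSG00000000184, chromosome 6, 127125162 to 127152193) was low, with a median of 1.94 TPM and a range of 0.09 to 13.6. Within a library, Ccnd3 was the highest D cyclin in 91 libraries, Ccnd1 in 23 and Ccnd2 in 1. The median share of the summed D cyclins was 56.3% for Ccnd3, 33.8% for Ccnd1 and 7.0% for Ccnd2. All 23 libraries led by Ccnd1 were in the larger part.

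The E cyclins were led by Ccne2. Ccne2 (ENSMUSG00000028212, chromosome 4, 11191351 to 11204779) had a median of 6.08 TPM and a range of 0.49 to 63.96, and it exceeded Ccne1 in all libraries but 1, with a median ratio of 3.25. Ccne1 (ENSMUSG00000002068, chromosome 7, 38097984 to 38107534) had a median of 1.97 TPM and a range of 0.17 to 23.8. Ccne2 was at 0.49 to 18.8 TPM in the larger part and 18.5 to 63.96 TPM in the smaller part, so the ranges overlapped only at their ends. Ccne1 ran from 0.17 to 6.0 TPM and from 3.46 to 23.8 TPM in the same order.

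Among the kinases, Cdk4 was the highest in every library. Cdk4 (ENSMUSG00000006728, chromosome 10, 127063534 to 127067920) had a median of 39.4 TPM and a range of 12.8 to 183.5, and its median exceeded that of 92.7% of the genes that averaged 1 TPM or more. Cdk2 (ENSMUSG00000025358, chromosome 10, 128697939 to 128705031) had a median of 6.77 TPM and ran from 1.74 to 36.1. Cdk6 (ENSMUSG00000040274, chromosome 5, 3341485 to 3531008), the other partner of the D cyclins, had a median of 2.25 TPM and ran from 0.47 to 81.6. Cdk4 made up a median of 81.5% of the summed kinases, Cdk2 11.8% and Cdk6 4.69%. Of the 2 kinases that D cyclins pair with, Cdk6 held between 0.898% and 45.3% of the sum.

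No member was listed at 0 in any library, and all 8 reached 1 TPM in at least 77 libraries. Ccnd3, Cdk2 and Cdk4 reached it in every library. Mki67 itself (chromosome 7, 135689784 to 135716361) ran from 0.39 to 144.5 TPM with a median of 7.89, from 0.39 to 25.7 TPM in the larger part and from 20 to 144.5 TPM in the smaller part. Some exons overlap a gene on the other strand, and the kit is not described as keeping strand, so reads of the 2 genes cannot be told apart there. The longest overlaps were 1100 of 4709 exon bases of Ccnd1 with LTO1, 641 of 3249 of Cdk4 with Tspan31 and 609 of 3495 of Ccne2 with Ints8. The near-identical copy Ccnd3-ps, which matches Ccnd3 over 881 bases at 96.2% identity, was at most 0.42 TPM.

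**Figure D1:**
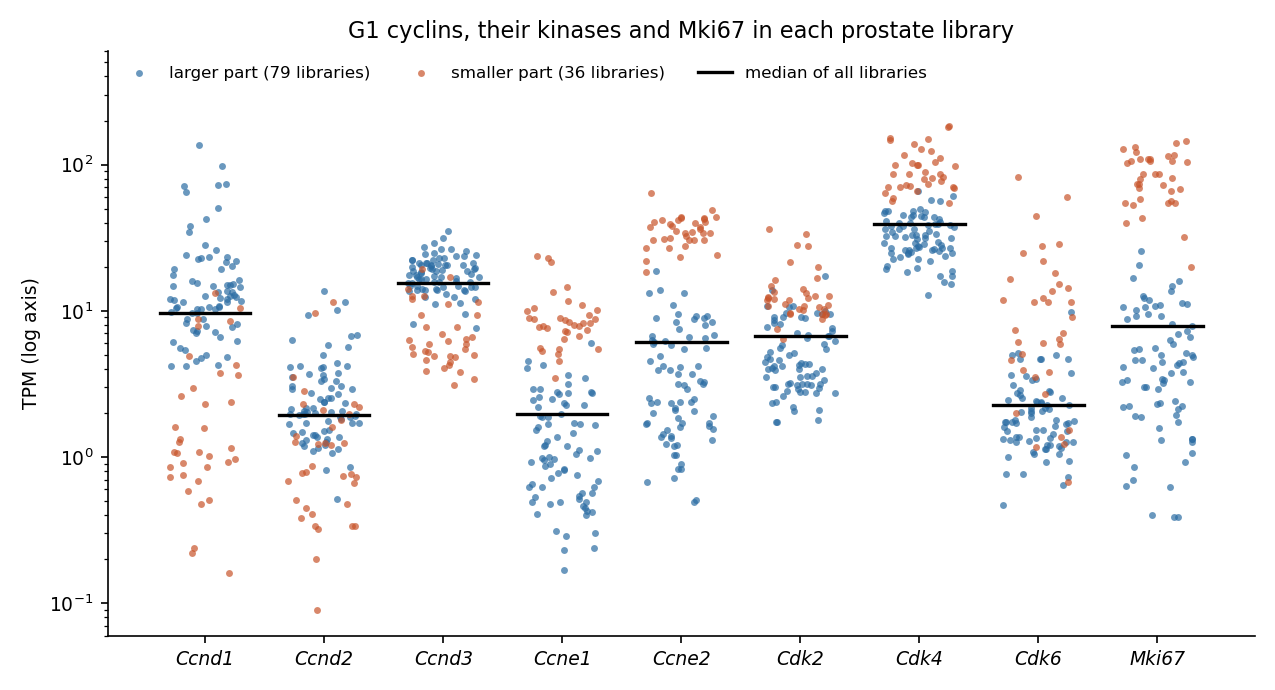
TPM of each member and of Mki67 in each library (log axis), with 79 libraries of the larger part in blue, 36 of the smaller part in orange and the median of all libraries as a bar. Cdk4 had the highest median, 39.4 TPM, and Ccnd1 ran from 0.16 to 135.4 TPM.

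By median, the members ran in the order Cdk4, Ccnd3, Ccnd1, Cdk2, Ccne2, Cdk6, Ccne1 and Ccnd2. Neighbours in this order were compared within libraries on the log2(TPM + 1) scale with a two-sided sign-flip permutation test of 100000 resamples (7 tests, not adjusted), of which 1e-05 is the smallest p they can give. Cdk4 exceeded Ccnd3 in 110 libraries with a median log2 ratio of 1.02, Ccnd3 exceeded Ccnd1 in 92 with 0.65, and Ccne2 exceeded Cdk6 in 88 with 0.95 (permutation p = 1e-05 for each). Cdk6 exceeded Ccne1 in 71 (0.26, permutation p = 0.0123). The other neighbours did not differ beyond their spread over all libraries, and each pair ran in opposite orders in the parts, which the pooled test does not show. Ccnd1 exceeded Cdk2 in 69 libraries (permutation p = 0.250) and Cdk2 exceeded Ccne2 in 69 (permutation p = 0.137, with a mean log2 ratio of -0.13 against a median of 0.17). Ccne1 exceeded Ccnd2 in 53 and was lower in 62, although its median was higher (permutation p = 0.119). All 69 libraries with more Ccnd1 than Cdk2 were in the larger part. Cdk2 exceeded Ccne2 in 67 of 79 libraries of the larger part and 2 of 36 of the smaller part. Ccne1 exceeded Ccnd2 in 18 of 79 and 35 of 36.

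The balance of E to D cyclins divided the libraries without exception. The summed D cyclins ran from 3.96 to 149.6 TPM (median 28.7) and the summed E cyclins from 0.73 to 77.3 TPM (median 8.29). The ratio of E to D cyclins, which does not depend on the scaling of a library, ran from 0.0156 to 11.8 with a median of 0.221. The E cyclins exceeded the D cyclins in 36 libraries, and these were the 36 libraries of the smaller part. The highest ratio in the larger part was 0.693 and the lowest in the smaller part 1.09. The same parts were obtained when these cyclins were left out, and no test was made between the parts. In the smaller part the highest cyclin was Ccne2 in 35 libraries and Ccne1 in 1, and in the larger part it was Ccnd3 in 56 and Ccnd1 in 23.

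**Figure D2:**
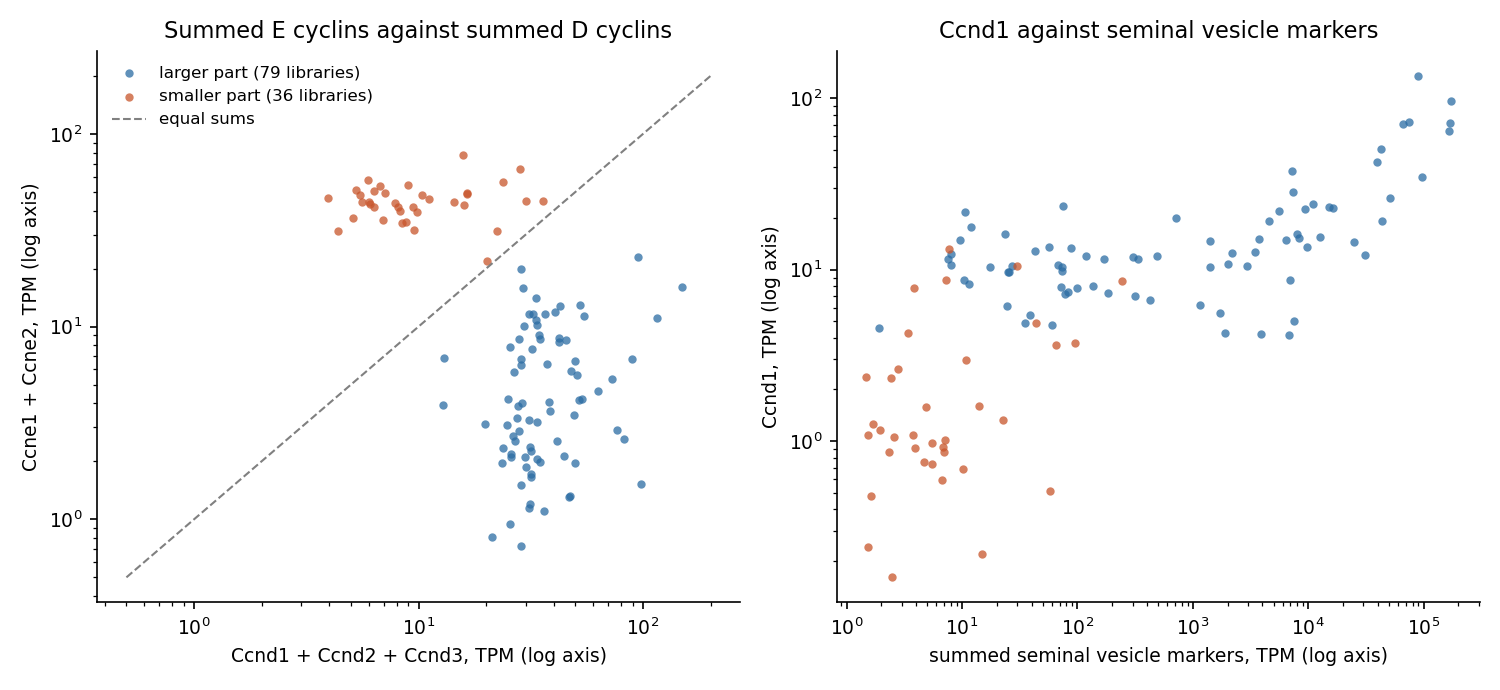
Left, the summed TPM of Ccne1 and Ccne2 against that of Ccnd1, Ccnd2 and Ccnd3 in each library, with a dashed line at equal sums. Right, Ccnd1 TPM against the summed TPM of 6 seminal vesicle markers. All axes are log axes, and blue and orange are the larger (79) and smaller (36) part. The 36 orange points lie above the line and the 79 blue points below it, and the highest Ccnd1 levels lie at the right.

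Across single libraries, 4 members separated into 2 levels by the rule given with the processing. They were Ccnd3 (87 libraries in the upper level), Ccne1 (42), Ccne2 (35) and Cdk6 (34), and Mki67 also did (34). With median-of-ratios scaling, which sets libraries to a common level by the median gene and not by the total, they were Ccnd1, Ccnd3, Ccne1, Ccne2 and Cdk4. No member separated within either part.

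In the larger part, the E cyclins and Cdk2 followed Mki67 most closely. Values on the log2(TPM + 1) scale were fitted on Mki67 with limma over 14621 genes and adjusted by the Benjamini-Hochberg method. Of the 8 members, 5 were called higher with Mki67 and 0 lower, against 72.9% and 1.44% of all genes, so that the count by itself is near that of any genes. With median-of-ratios scaling 4 members were called higher and 3 lower, against 22% and 20% of all genes. The median r of all genes with Mki67 fell from 0.433 to -0.0196 between the scalings, and the size factor of a library itself had r = 0.614 with Mki67. Both values are therefore given for each member.

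With Mki67, Cdk2 had r = 0.929 and rho = 0.930 over 79 libraries (permutation p = 1e-05 for both, the smallest that 100000 resamples can give) and r = 0.896 with median-of-ratios scaling. Its slope was 0.57 ± 0.03 (SE) log2 units per unit of Mki67, or 1.48-fold per doubling (limma adjusted p = 6.02e-33). Ccne2 had the steepest slope among the members, 0.81 ± 0.04 or 1.76-fold per doubling, with r = 0.925 and rho = 0.933 (permutation p = 1e-05 for each, limma adjusted p = 9.01e-33). With median-of-ratios scaling its r was 0.889. Ccne1 had r = 0.876 and rho = 0.895 (permutation p = 1e-05 for each) with a slope of 0.52 ± 0.03 (limma adjusted p = 8.98e-25), and r = 0.820 with the other scaling. Among 14621 genes ordered by r, Cdk2 was at place 149, Ccne2 at 167 and Ccne1 at 308.

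Cdk4 followed Mki67 with a shallower slope. It had r = 0.829 and rho = 0.829 (permutation p = 1e-05 for each), a slope of 0.38 ± 0.03 or 1.30-fold per doubling (limma adjusted p = 1.23e-19), and r = 0.624 with median-of-ratios scaling. Cdk6 was not called in TPM and was called lower after rescaling, with r = -0.102 and rho = -0.0697 (permutation p = 0.369 and 0.540, slope -0.05 ± 0.06, limma adjusted p = 0.408) in the first and r = -0.528 (limma adjusted p = 4.81e-06) with median-of-ratios scaling. The ratio of Cdk6 to Cdk4 within a library, on which scaling has no effect, fell with Mki67, with r = -0.510 and rho = -0.457 (permutation p = 1e-05 and 7e-05, r = -0.612 against rescaled Mki67). The ratio of Cdk2 to Cdk4 rose, with r = 0.795 and rho = 0.794 (permutation p = 1e-05 for each). In the smaller part neither ratio moved with Mki67 beyond the spread between libraries. There Cdk6 to Cdk4 had r = -0.0406 and rho = -0.0373 (permutation p = 0.814 and 0.830). Cdk2 to Cdk4 had r = -0.0401 and rho = -0.110 (permutation p = 0.818 and 0.520).

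The D cyclins did not share the pattern of the E cyclins. Ccnd1 had r = 0.0899 and rho = 0.0495 with Mki67 (permutation p = 0.430 and 0.662), and its slope of 0.09 ± 0.11 was not called (limma adjusted p = 0.468), nor was it after rescaling (r = -0.0853). Ccnd2 had r = -0.167 and rho = -0.0663 (permutation p = 0.141 and 0.561, slope -0.11 ± 0.07, limma adjusted p = 0.167) and was called lower after rescaling, with r = -0.558 (limma adjusted p = 7.88e-07). Libraries W5000 to W5005, at the low end of Mki67 with 0.39 to 0.93 TPM, held 3.29 to 13.6 TPM of Ccnd2. The median of Ccnd2 over all libraries was 1.94 TPM. How far the fall of Ccnd2 rests on these libraries was not tested. Ccnd3 changed direction with the scaling. It was called higher in TPM, with r = 0.355 and rho = 0.387 (permutation p = 0.00108 and 0.00053, slope 0.13 ± 0.04, limma adjusted p = 0.00209), and lower after rescaling, with r = -0.407 (limma adjusted p = 0.00107). Its r in TPM was below the median of all genes. With the 2 most extreme libraries by Mki67 left out, r lay between -0.208 for Ccnd2 and 0.920 for Cdk2.

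The ratio of E to D cyclins rose with Mki67 in the larger part, with r = 0.812 and rho = 0.814 (permutation p = 1e-05 for each, 10 such relations of ratios computed, r = 0.797 without the 2 farthest libraries and 0.844 against rescaled Mki67). In the smaller part r was 0.408 and rho 0.424 (n = 36, permutation p = 0.0133 and 0.0105, r = 0.471 without the 2 farthest and 0.512 against rescaled Mki67).

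**Figure D3:**
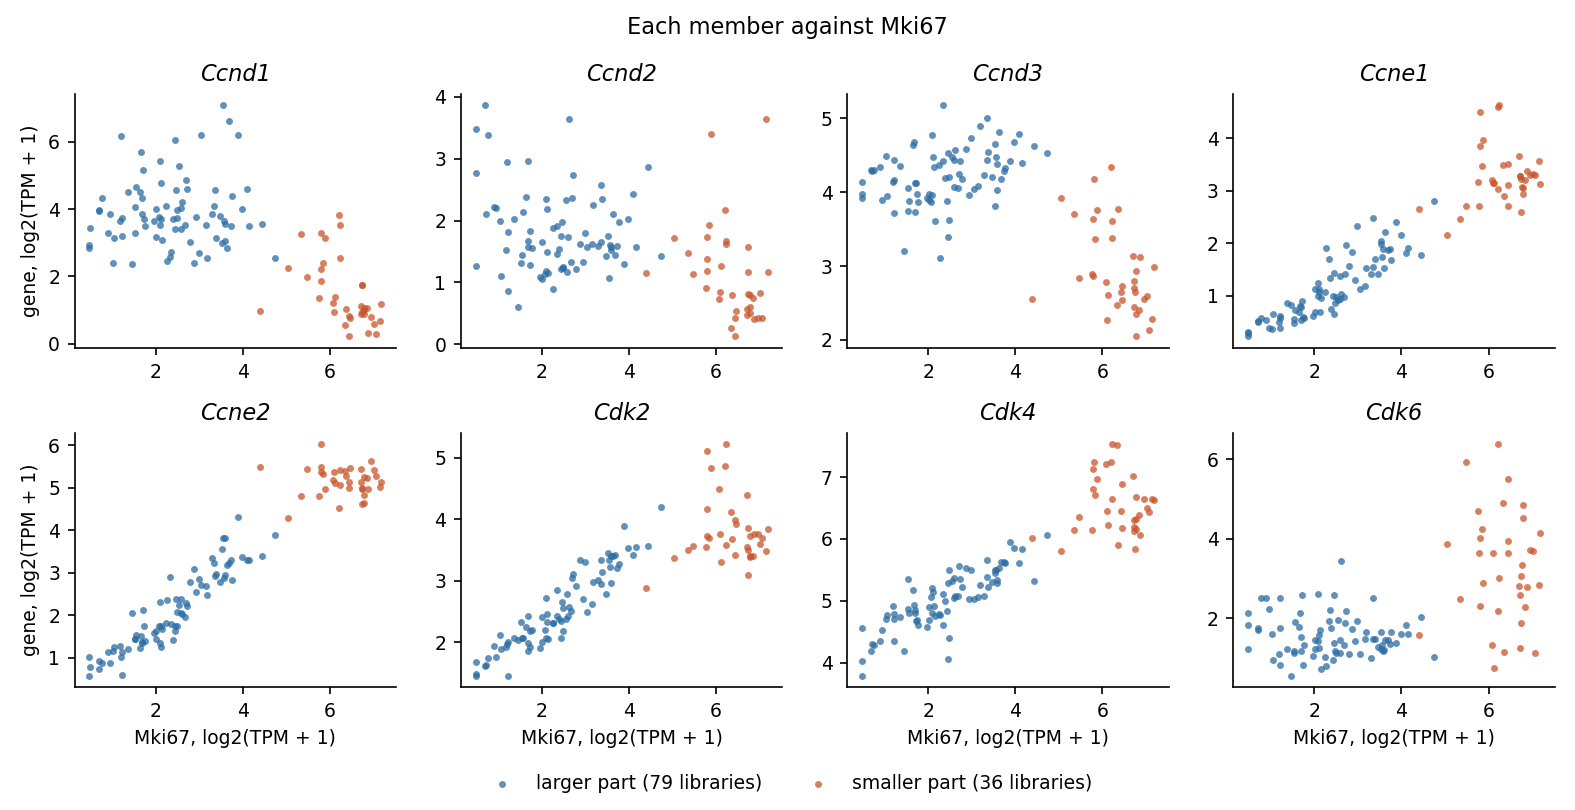
Each member against Mki67, both as log2(TPM + 1), with 1 point per library, the larger part (79) in blue and the smaller part (36) in orange. In the larger part Ccne1, Ccne2, Cdk2 and Cdk4 lie along rising lines (r = 0.876, 0.925, 0.929 and 0.829), and Ccnd1 and Cdk6 do not (r = 0.0899 and -0.102).

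In the smaller part, where Mki67 ran from 20 to 144.5 TPM, the same 4 genes were not called with Mki67. Of the 8 members 0 were called higher and 2 lower, against 23.3% and 21.6% of 14611 genes, and with median-of-ratios scaling the counts were the same, against 23.6% and 38.2%. Ccnd1 fell with Mki67, with r = -0.483 and rho = -0.613 (n = 36, permutation p = 0.00278 and 8e-05, slope -0.75 ± 0.23, limma adjusted p = 0.00770). Ccnd3 fell too, with r = -0.435 and rho = -0.484 (permutation p = 0.00795 and 0.00321, slope -0.41 ± 0.14, limma adjusted p = 0.0196). The r of both was further from 0 without the 2 farthest libraries, at -0.637 and -0.535. The libraries of this part that are listed last, from W4356 on, all had Mki67 of at least 73.6 TPM. Their Ccnd1 was at most 2.36 TPM except in W4417, with 4.87 TPM. In those listed earlier Mki67 ran from 20 to 132.6 TPM and Ccnd1 from 0.22 to 13.2 TPM. Whether this order has a part in these relations was not tested. The other 6 members had r between -0.236 for Ccnd2 and 0.198 for Ccne1, with limma adjusted p from 0.236 to 0.992. For Ccnd2 the rank correlation was further from 0, with rho = -0.431 (permutation p = 0.00969), and its call by ranks was lower (limma adjusted p = 0.0148).

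These values rest on Mki67 as the measure of cycling. In the larger part Mki67 had r of 0.936 to 0.973 with each of 7 other proliferation markers (Top2a, Birc5, Bub1, Aurkb, Plk1, Cdc20 and Cenpf), but in the smaller part r ran from 0.0826 for Plk1 to 0.894 for Cenpf. With the mean of those 7 in place of Mki67, Ccne1 (r = 0.633, limma adjusted p = 0.000667), Cdk2 (r = 0.555, adjusted p = 0.00416) and Cdk4 (r = 0.518, adjusted p = 0.00904) were called higher in the smaller part, and no D cyclin was called, against 19% of all genes higher and 2.92% lower. With median-of-ratios scaling as well, Cdk2 (r = 0.348, limma adjusted p = 0.115) and Cdk4 (r = 0.361, adjusted p = 0.101) were no longer called, and Ccne1 was (r = 0.429, adjusted p = 0.0429). In the smaller part Mki67 also moved against markers of other cells, with r = -0.725 for the prostate luminal index, -0.516 for the smooth muscle and fibroblast index and -0.505 for the leukocyte index. With leukocyte, stroma and seminal vesicle indices as covariates, Ccnd1 (limma adjusted p = 0.933) and Ccnd3 (adjusted p = 0.767) were no longer called there, and 4.1% of all genes were called lower. Whether the slope of any member differs between the parts was not tested.

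The other genes of the G1 to S pathway were followed in the same fits, from a list of 48 genes grouped by role, all of which passed the filter on low values. In the larger part 45 were called higher with Mki67 and 0 lower, and 33 higher and 5 lower with median-of-ratios scaling, against 72.9% and 1.44% of all genes in the first and 22% and 20% in the second. Their median r was 0.842 and 0.762 in the 2 scalings, against 0.433 and -0.0196 for all genes. All 13 S-phase genes that E2F controls and all 4 later cyclins and kinase were called higher in both scalings. Among the highest r were those of Ccna2, the S and G2 cyclin A (0.966), Ccnb2, a mitotic cyclin (0.957), and Mcm3, a subunit of the replicative helicase (0.950). All 4 INK4 inhibitors, which bind Cdk4 and Cdk6, were called higher, among them Cdkn2a, the p16 and p19ARF gene (r = 0.927, and 0.916 after rescaling). The lowest r were those of Myc (0.0187), Mycn (0.175), Cdk7, the kinase that activates other Cdks (0.230), and Rbl2, the p130 gene of the RB family (0.264). After rescaling Myc, Cdk7 and Rbl2 were called lower, with r of -0.486, -0.486 and -0.481, so that among these 4 only Mycn kept its sign.

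Of the same 48 genes, 24 were called higher and 1 lower in the smaller part, and 23 and 5 with median-of-ratios scaling, against 23.3% and 21.6% of all genes in the first and 23.6% and 38.2% in the second. Of the 13 S-phase genes 3 were called higher, a share near that of all genes. The highest r were those of Skp2, which marks the p27 inhibitor for degradation (0.890), E2f8 (0.867) and E2f7 (0.818), which repress E2F targets, and Mcm7, another helicase subunit (0.695). Among the E2F and DP factors 8 of 10 were called higher and 1 lower. The lowest were E2f5, an E2F that pairs with p130 and p107 (r = -0.425, limma adjusted p = 0.0271), Cdkn2a (-0.351), Mnat1, a subunit of the Cdk7 complex (-0.276), and Mcm2 (-0.254). Of these 4, E2f5 was called in TPM, and all 4 were called lower after rescaling. Rb1, the target of the Cdk4 and Cdk6 complexes, was called higher in both parts (r = 0.639 in the larger and 0.642 in the smaller part) and is named here after its values were seen.

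**Figure D4:**
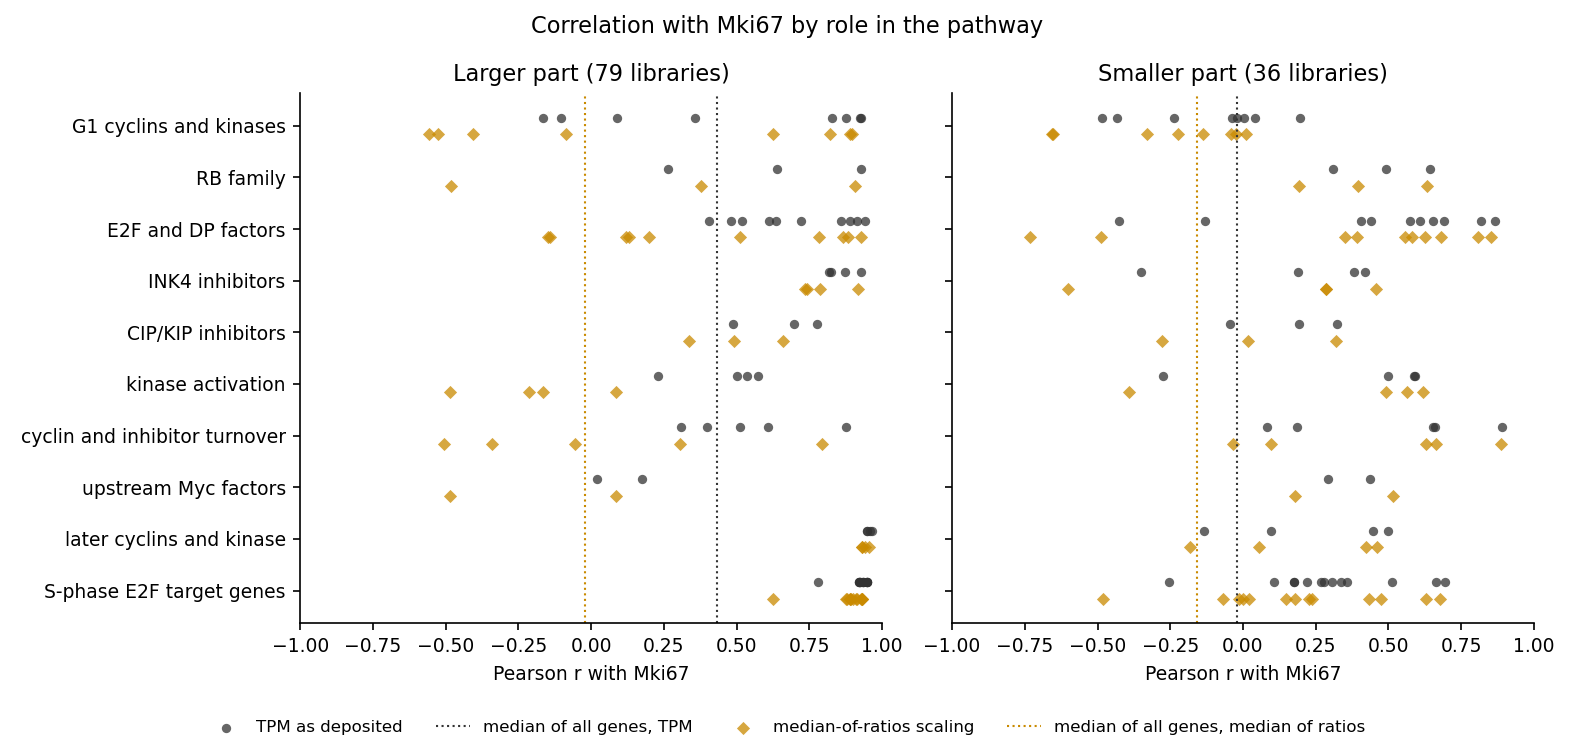
Pearson r with Mki67 for the 8 members (top line) and the 48 other pathway genes by role, in the larger (left, 79 libraries) and smaller part (right, 36 libraries). Black circles are TPM as deposited, orange diamonds are median-of-ratios scaling and dotted lines are the median r of all genes. The members are spread from -0.167 to 0.929 in TPM at left, while the 4 later cyclins and kinase lie at the right edge.

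The members were then compared with each other, over 28 pairs in each part. In the larger part Ccne1, Ccne2, Cdk2 and Cdk4 formed a block. Ccne1 and Cdk2 had r = 0.937 and rho = 0.922, Ccne2 and Cdk2 0.937 and 0.925, Ccne1 and Ccne2 0.914 and 0.921, and Cdk2 and Cdk4 0.900 and 0.904 (permutation p = 1e-05 for each). With median-of-ratios scaling these r were 0.915, 0.937, 0.880 and 0.716. Outside the block, Ccnd2 and Cdk6 had r = 0.764 and rho = 0.804 (permutation p = 1e-05 for each, limma adjusted p = 3.52e-14, r = 0.734 without the 2 farthest libraries and 0.716 after rescaling), where 51.1% of all genes were called with Ccnd2. With the genes of the block, Ccnd2 and Cdk6 had r from -0.171 (Ccnd2 with Ccne2) to 0.0328 (Cdk6 with Cdk2) in TPM. After rescaling these r ran from -0.764 (Ccnd2 with Cdk4) to -0.378 (Cdk6 with Ccne1). Ccnd1 was called with 0 other members, against 15.5% of all genes, and its r ran from -0.00183 for Ccne1 to 0.245 for Cdk6.

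The D cyclins varied together in the smaller part, and the 2 E cyclins were not called with each other. Ccnd1 and Ccnd3 had r = 0.790 and rho = 0.699 (n = 36, permutation p = 1e-05 and 2e-05, limma adjusted p = 8.05e-08), and Ccnd1 and Ccnd2 r = 0.618 and rho = 0.794 (permutation p = 0.00011 and 1e-05), against 60.2% of all genes called with Ccnd1. The weakest of the 3 pairs was Ccnd2 with Ccnd3, with r = 0.461 and rho = 0.547 (permutation p = 0.00469 and 0.00090, limma adjusted p = 0.0208, r = 0.394 without the 2 farthest libraries). After rescaling the 3 r were 0.749, 0.561 and 0.381. Ccnd1 and Ccnd3 were also called with members outside the D cyclins, and Ccnd2 was not. With Cdk2, Ccnd3 had r = 0.555 and rho = 0.370 and Ccnd1 r = 0.526 and rho = 0.169 (limma adjusted p = 0.00117 and 0.00199). Ccnd1 was called with Ccne1 (r = 0.404, rho = 0.0550) and Cdk4 (r = 0.372, rho = 0.206), and Ccnd3 with Ccne1 (r = 0.370, rho = 0.150). Ccne1 was still close to Cdk2 (r = 0.808, rho = 0.656, permutation p = 1e-05 for each) and to Cdk4 (r = 0.722, rho = 0.675, permutation p = 1e-05 for each). Ccne1 and Ccne2 had r = 0.175 and rho = 0.186 (permutation p = 0.308 and 0.276, limma adjusted p = 0.398), against 46.4% of all genes called with Ccne1. The r of Cdk6 with the other members ran from -0.163 to 0.126.

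**Figure D5:**
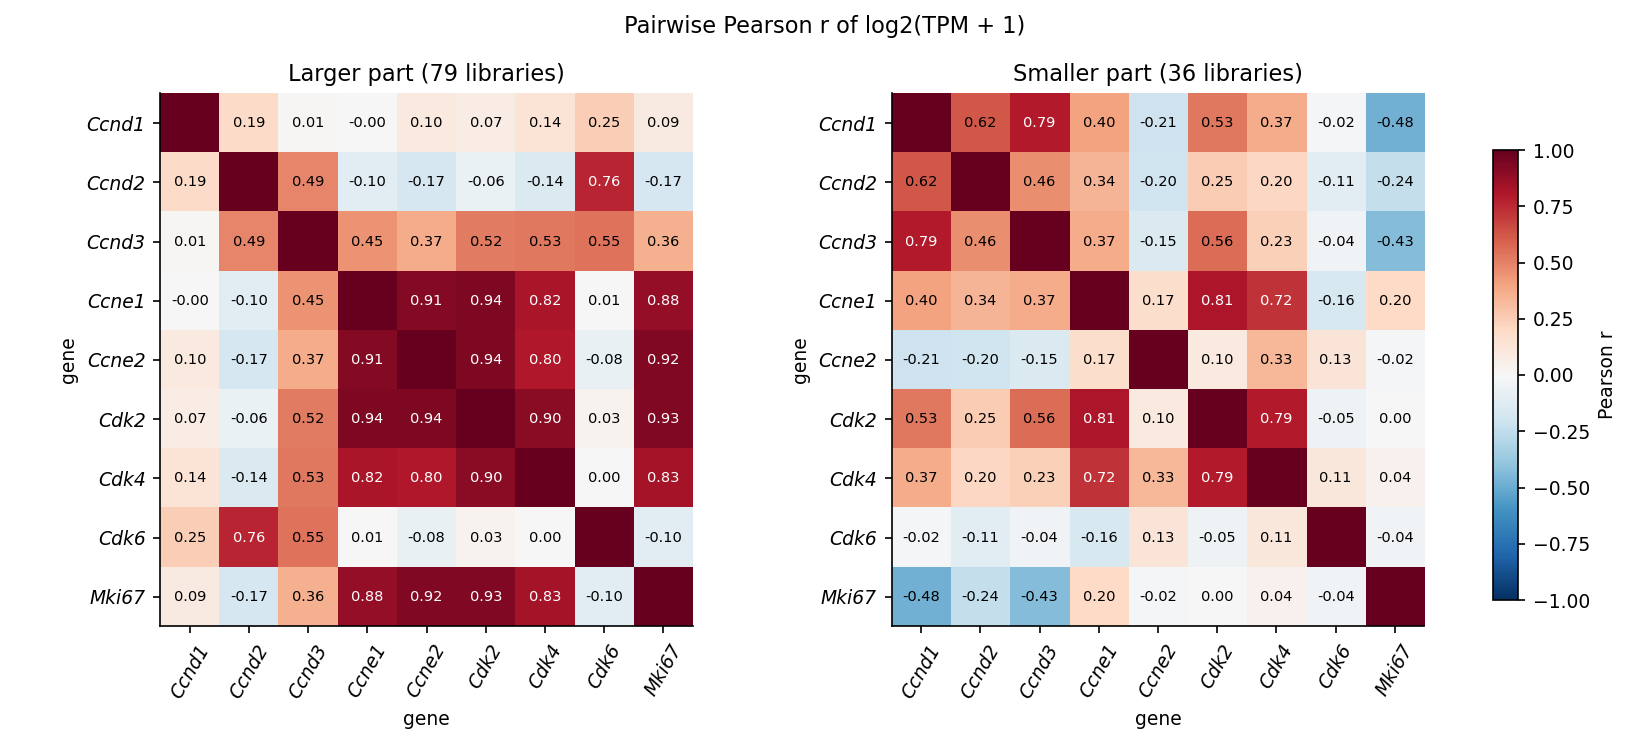
Pearson r of log2(TPM + 1) for each pair of members and Mki67 in the larger (left, 79 libraries) and smaller part (right, 36 libraries), with red for positive and blue for negative r. Ccne1, Ccne2, Cdk2, Cdk4 and Mki67 form a red block at left, and Ccnd1 to Ccnd3 a red corner at right (r = 0.790 for Ccnd1 and Ccnd3). The positive r of Ccnd3 with Ccne1, Ccne2, Cdk2, Cdk4 and Mki67 at left turns negative with median-of-ratios scaling.

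Markers of other cell types moved with members of each role. The leukocyte index was called higher in the larger part with Cdk2 (r = 0.676), Ccne1 (0.645), Cdk4 (0.607) and Ccne2 (0.588), as with 84.3% of all genes and with Mki67 (0.579). After rescaling these r were 0.387, 0.482, 0.0439 and 0.419. With leukocyte, stroma and seminal vesicle indices as covariates, all 4 were still called higher with Mki67, with slopes of 0.49, 0.43, 0.32 and 0.78 (limma adjusted p at most 1.56e-13). In that fit 44.4% of all genes were called higher and 7.54% lower. Cdk4 also had r = 0.541 with the prostate luminal index (0.361 after rescaling), whose part was not tested. The index of a list is the mean of its standardized genes, and 64 member and index relations were computed in each part. In the larger part Ccnd1 had r = 0.625 and rho = 0.486 with the index of 6 seminal vesicle markers (permutation p = 1e-05 and 3e-05, limma adjusted p = 1.37e-07). Only 1.42% of all genes were called higher with this index, and no other member was. It was 0.654 after rescaling, 0.568 without the 2 farthest libraries and 0.602 without library W4426, which held the highest Ccnd1. The markers were present at 1.9 to 170786 TPM in sum, and 5 of the 6 reached 1 TPM in most libraries. Library W4426, with 135.4 TPM of Ccnd1, held 88553 TPM of these markers, the fifth highest sum. Library W4434, with 97.03 TPM of Ccnd1, held 170786 TPM, the highest. Libraries W4173, W4065, W4492 and W4351, with Ccnd1 between 64.8 and 73.1 TPM, held sums at places 6, 2, 7 and 3. The 6 libraries with the most Ccnd1 were thus all among the 7 with the most seminal vesicle RNA, and their Mki67 ran from 1.31 to 13.7 TPM.

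Ccnd1 also rose with the smooth muscle and fibroblast index in the larger part (r = 0.666, rho = 0.675, permutation p = 1e-05 for each, r = 0.689 after rescaling), as 85.1% of all genes did. Ccnd2 rose with the endothelium index of 5 genes (r = 0.701, rho = 0.754, permutation p = 1e-05 for each, r = 0.598 after rescaling), and so did Cdk6 (r = 0.690, rho = 0.661, permutation p = 1e-05 for each, r = 0.547 after rescaling). That index was called higher with 78.1% of all genes in TPM. The summed endothelial markers ran from 4.89 to 84.9 TPM in the larger part. Ccnd1 and Ccnd2 also rose with the basal epithelium index (r = 0.505 and 0.452, and 0.496 and 0.425 after rescaling), and no other member did. With that index 11.3% of all genes were called higher. With the neuroendocrine index Ccnd2 (r = 0.580), Cdk6 (0.440) and Ccnd3 (0.359) were called higher, as 43.3% of all genes were. After rescaling these r were 0.539, 0.373 and 0.120.

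Ccnd1 rose in the smaller part with the endothelium (r = 0.857, rho = 0.874), leukocyte (r = 0.798, rho = 0.867) and smooth muscle and fibroblast indices (r = 0.790, rho = 0.839, permutation p = 1e-05 for each), against 44.4%, 31.3% and 33.6% of all genes. Ccnd3 rose with the endothelium index (r = 0.750, rho = 0.721) and the smooth muscle and fibroblast index (r = 0.691, rho = 0.685, permutation p at most 2e-05). Against the neuroendocrine index Ccnd1, Ccnd2, Ccnd3, Ccne1 and Cdk2 were called lower, as 25.8% of all genes were. Ccnd1 had r = -0.662 and rho = -0.431 (permutation p = 6e-05 and 0.00918), Ccnd3 r = -0.571 and rho = -0.348, and Ccnd2 r = -0.488 and rho = -0.404. Ccne1 had r = -0.585 but rho = -0.220 (permutation p = 0.00032 and 0.196). Cdk2 had r = -0.602 but rho = -0.0974 (permutation p = 0.00033 and 0.571), so that the relations of Ccne1 and Cdk2 did not hold by rank. The summed leukocyte markers ran from 6.44 to 241.0 TPM and the summed smooth muscle and fibroblast markers from 3.75 to 1888 TPM in these 36 libraries. Cdk6 was called with no index there, with r from -0.198 to 0.226. The part of these cells in the levels of the D cyclins was not tested beyond the covariate fit above.

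The genes most like each member in the larger part were ranked by r. For Cdk2 they were Slbp, the histone mRNA binding protein gene (0.981), Pola2, a subunit of the primase complex (0.980), and Mcm7 (0.974). Those of Ccne2 included Cdc6 (0.961) and Dtl (0.958), and those of Ccne1 were Rfc3 (0.953), Dck (0.950) and Dut (0.937), which all act in DNA replication or nucleotide supply. In the smaller part the r of these genes with their member ran from 0.170 for Dut, with Dtl at 0.172, to 0.664 for Rfc3. The median r of all genes there was 0.310 with Ccne1, above that of Dut, 0.0867 with Ccne2 and 0.335 with Cdk2. No p is given for these r. Cdk4 was closest to Rbmxl1 (0.951), Alyref (0.946) and Ncaph2 (0.945). Rbmxl1 had r = 0.795 in the smaller part as well.

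The D cyclins and Cdk6 had less close neighbours. Ccnd3 was closest to Ctdsp2 (0.883), Ap3s2 (0.880) and Lmtk2 (0.873), which fell to 0.506, 0.604 and 0.637 after rescaling. Ccnd1 was closest to Bpgm (0.845), Anxa9 (0.831) and Slc4a8 (0.825), and Slc4a8 had r = -0.555 in the smaller part. Ccnd2 was closest to Pdzd2 (0.858), 1600014C10Rik (0.856) and Afap1l2 (0.851). Cdk6 was closest to Adgrd1 (0.818), Mycbp2 (0.811) and Cep85l (0.809), all of which had r between -0.117 and 0.0540 in the smaller part.

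Among the members, Cdk6 had the widest spread within the smaller part. Its values there ran from 0.67 to 81.6 TPM, with an SD of 1.39 on the log2(TPM + 1) scale against 0.46 for Cdk4 and 0.34 for Ccne2. All 7 libraries above 20 TPM of Cdk6 were in the smaller part. They were W4417 with 81.6 TPM, W1182 with 59.7, W4202 with 44.5 and 4 others with 21.96 to 28.7. Their Cdk4 ran from 69.7 to 181.7 TPM and their Mki67 from 43.4 to 109.2 TPM, both within the range of the part. Cdk6 thus stayed below Cdk4 in each of them, with a ratio of at most 0.827.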

How the data were processed

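RNA-seq libraries of 1 group of mice were used. The study's methods name fewer libraries than the table holds, and since which ones is not given, all were used. Per the labels and the study's methods, the authors made libraries from total RNA after ribosomal depletion, trimmed reads with Trimmomatic, used Seqnature to write a diploid, allele-specific transcriptome from both parental strains, mapped with Bowtie2 2.2.5 and quantified with RSEM 1.2.20 (CASAVA 1.8.2 and GRCm38 are in the submitters' processing notes). The authors deposited TPM per gene, which is scaled within a library, so a few abundant RNAs lower all other values. The annotation release is not given in the sources used here. Names came from GENCODE M21, which held 98.8% of the genes. The annotation of members was read on GRCm38, and promoters from RefSeq.

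Genes averaging 1 TPM or more were tested on log2(TPM + 1), where slopes understate the change of low genes. Parts were set by 2 normal distributions on the first principal component, and a gene or component was called separate when BIC fell by over 10, with Ashman D above 2 and no fewer than 6 libraries on either side. limma 3.58.1 (trended eBayes, R 4.3.3) with Benjamini-Hochberg adjustment over all genes gave calls at 0.05, and two-sided permutation tests with 100000 resamples gave p for r and rho. An index is the mean z-score of a marker list, in which Pbsn was left out because it is X-linked and listed near 0. Permutation p were not adjusted over the members. A pair of libraries labelled W7822 and W78022 had r = 0.955 and both were kept, and the closest pair had r = 0.974. Nothing beyond the labels says that libraries are from separate mice, so p-values measure the spread between libraries.

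The members, lists and tests were chosen with earlier results of these data known. The genes named are the members, Mki67, the 4 highest and 4 lowest pathway genes by r in each part, the 3 genes most like each member, and markers, and a few that this rule names are not reported here. The cause of the 2 parts was not tested. Alternatives are listed after the report, and those added after the data were seen are named there. The fits were tested on simulated data in which genes varied independently. A scaling shared by all genes of a library was not simulated, so its effect on the calls was not tested there. BLAST+ 2.17.0, matplotlib 3.10.9, scikit-learn 1.9.0, pandas 2.3.3, scipy 1.17.1 and numpy 2.4.6 were run in Python 3.11.15.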

Additional observations from a re-analysis of the deposited data

How the results depend on the processing

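Slopes, calls and counts against Mki67 were recomputed with median-of-ratios scaling, a pseudocount of 0.1, removal of the 20 most abundant genes, no filter and ranks. They were also recomputed with the proliferation index, with covariates, without library W78022 and without the 2 libraries farthest in Mki67. A further alternative used parts set without the members, Mki67 and the listed pathway and proliferation genes. Alternatives added after the data were seen were the proliferation index with median-of-ratios scaling and leaving out W4426, W4417 or W1915. Ccne1, Ccne2, Cdk2 and Cdk4 stayed called higher in the larger part under each alternative run there (W4417 and W1915 are in the smaller part). The slope of Ccnd3 in the larger part, 0.13 in TPM, was called in the other direction at -0.10 (median of ratios) and -0.090 (index with median of ratios), and its call was lost at -0.040 without the 20 genes (limma adjusted p = 0.256) and at 0.0070 with covariates (adjusted p = 0.901). The count of members called lower there, 0 in TPM, was 3 with median of ratios, 2 without the 20 genes, 2 with covariates and 3 with the index and median of ratios. That of pathway genes, also 0 in TPM, was 5 with median of ratios, 2 without the 20 genes and 5 with the index and median of ratios. Of all genes, 20% were called lower with median of ratios, 8.2% without the 20 genes and 7.54% with covariates. In the smaller part members called higher went from 0 to 3 with the index and 1 with the index and median of ratios, and members called lower from 2 to 0 with the index, with covariates and with both index and scaling. Pathway genes called lower, 1 in TPM, were 5 with median of ratios, 2 without the 20 genes, 2 with ranks, 2 without the 2 farthest libraries and 0 with the index, covariates or index and scaling, and those called higher went from 24 to 13 without the 2 farthest libraries. All 8 members reached 1 TPM in at least 50% of libraries and 5 reached 5 TPM. The cause of these changes was not tested. The calls on the order of neighbours were unchanged with a pseudocount of 0.1, and the members with 2 levels were Ccnd3, Ccne2 and Cdk6 with it. Members were compared within libraries, but no pairing of libraries between groups was possible because there is only 1 group of libraries. TPM keeps no depth, so the counting error of low members such as Ccnd2 is unknown.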

Other observations

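Library W1915, in the smaller part, had the highest Ccne1 (23.8 TPM), Cdk2 (36.1 TPM) and Cdk4 (183.5 TPM) of all libraries, while its Mki67, 74.05 TPM, was at place 21. The genes that follow were named after their values were seen. Pou2f3, a transcription factor of tuft cells, was at 54.3 TPM in this library, against a median of 0.90 and a next highest value of 9.47. Trpm5, a cation channel of the same cells, was at 39.2 TPM against a next highest of 13.3. Avil, an actin-binding gene also known from tuft cells, was at 229.9 TPM against a next highest of 116.2. It is a close neighbour of Cdk4, with its start at -62825 bases from that of Cdk4. Avil is 1 of 30 genes averaging 1 TPM or more within 1 Mb of Cdk4. In this library Avil was at 676 times its median and Cdk4 at 4.65 times, and the other genes of that window were between 0.127 and 21.5 times their medians. Whether the place of Avil beside Cdk4 has a part in its level was not tested. The neuroendocrine markers Chga and Insm1 were at 1.23 and 1.91 TPM there, below their medians of 57.2 and 27.5 TPM in the smaller part, while Foxa2 was at 53.97 TPM, the highest but for 1 library. Leaving this library out changed no call of a member against Mki67 in the smaller part.

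Near Ccnd1 in library W4426, Ano1, a chloride channel gene on the same chromosome, was at 151.3 TPM against a median of 34.03, at place 3 of all libraries. Ano1 is 1 of 8 genes averaging 1 TPM or more within 1 Mb of Ccnd1, and the other 7 were between 0.716 and 1.26 times their medians. Ano1 was above its median in all 8 libraries with the most Ccnd1, from 54.6 to 160.5 TPM.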
